A study of Homo sapiens with 6 samples.

Results

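BEX1, BEX2, BEX3, BEX4, BEX5, TCEAL1, TCEAL3, TCEAL4, TCEAL8 and TCEAL9 are 10 genes of a pair of related families of small proteins on the long arm of the X chromosome. Their RNA levels were compared in U87 cells, an established human glioblastoma line, after rutaecarpine and after the solvent alone. Rutaecarpine is an alkaloid of the fruit of Evodia that the study examined as an agonist of the aryl hydrocarbon receptor (AhR). The members were taken by gene name from a table of 60671 genes, and they were chosen from the same contrast, with the difference of BEX1 and of its relatives already known. Their differences between the groups are therefore described, and p values are given only for genes that are not members. Where members are said to pass the cutoffs applied to all genes, this describes the list and is not a test of it.

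There were 3 control libraries and 3 rutaecarpine libraries. Control cells received 0.1% DMSO for 48 h, and treated cells received 100 μM rutaecarpine for 48 h in the same final amount of DMSO. Both groups were kept in serum-free medium during the treatment. All libraries came from 1 cell line, and the labels do not say whether the 3 libraries of a group came from separate cultures, so the p values measure only the spread between these libraries. Values are in TPM, in which reads are divided by transcript length and libraries are brought to a common total, so levels can be set side by side between genes. How many reads stand behind a value is not known.

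BEX stands for brain expressed X-linked, and TCEAL for transcription elongation factor A (SII)-like. The families lie together in Xq22 and are found in placental mammals. Their proteins are small, are thought to lack a fixed fold over much of their length, and are best known from neurons and the developing brain. BEX3, also called NADE, binds the death domain of the p75 neurotrophin receptor, and BEX1 has been described as a partner of the same receptor. BEX1 and BEX2 have been studied as genes silenced by promoter methylation in glioma. The TCEAL genes are named for a resemblance to the elongation factor TFIIS, and TCEAL1, the best studied of them, was described as a modulator of transcription.

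The promoters of the families share short stretches of sequence, shown here because they line up the members without use of their expression. The E-box CACGTG, a palindrome bound by many basic helix-loop-helix factors, occurs in the RefSeq promoter windows of 8 of the 10 members, BEX5 and TCEAL9 being without it. A window covers 250 bases before and 50 bases after a transcript start on GRCh38.p14, and 8.77% of all 27305 genes have the letters in at least 1 window. The E-box was looked for after the letters of these promoters had been seen. Each line gives the E-box in capitals with up to 12 bases on either side, read 5′ to 3′ on the strand of the gene, and ARMCX4, a gene of a neighbouring family, is shown for comparison:
BEX1 (chrX:103064201-103064230, minus strand): acgcacggccctCACGTGaccgggagctgc
BEX3 (chrX:103376479-103376508, plus strand): acgcgcggccctCACGTGacccagagctgc
ARMCX4 (chrX:101485397-101485426, plus strand): acgcgcggtcctCACGTGacccggagctgc
TCEAL1 (chrX:103628907-103628936, plus strand): acgcgcgtccctCACGTGaccaggagcctc
BEX2 (chrX:103310992-103311021, minus strand): tgacaacagccaCACGTGatcggccaacac
BEX4 (chrX:103215077-103215106, plus strand): tgacaacagcccCACGTGaccggccaacac
TCEAL3 (chrX:103607871-103607900, plus strand): tgacgcggcgctCACGTGacccgccgggcg
TCEAL8 (chrX:103255169-103255198, minus strand): tgacgcgactctCACGTGaccaggagtcga
TCEAL4 (chrX:103585493-103585514, plus strand): ggctgcggcattCACGTGatct

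Each stretch lies before at least 1 RefSeq start of its gene, and overlaps the span that GENCODE release 29 gives the gene. BEX3, BEX4, TCEAL1 and ARMCX4 have more than 1 start in RefSeq, and distances are to the start just after the stretch. The E-box of BEX1 began 47 bases before the start, as did those of BEX3 and ARMCX4. In BEX2 it began 19 bases before the start, and in BEX4 it began 19 bases before one start and 3 bases before the other, which the stretch crosses. Over the 66 bases around the E-box, BEX1 and BEX3 were identical at 58 (87.9%), and ARMCX4 was identical to each of them at 61 (92.4%). BEX2 and BEX4 were identical at 45 of 49 bases (91.8%). By these letters, among the BEX genes shown, BEX1 was nearest to BEX3 and BEX2 to BEX4. By their difference after rutaecarpine, given below, BEX1 and BEX3 were the BEX genes farthest apart. Whether these stretches bear on the RNA levels was not tested.

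The palindrome TCACGTGA, which contains the E-box, was present in 6 of the 10 members (BEX1, BEX3, TCEAL1, TCEAL3, TCEAL4 and TCEAL8) and in 1.18% of all genes. The dioxin response element, the site bound by AhR with its partner ARNT, was searched on both strands as CACGCNA. It was present in 1 member, BEX3, and in 6.69% of all genes. Its core CACGC, which the longer motif contains, was present in 5 members (BEX2, BEX3, BEX4, BEX5 and TCEAL4) and in 40.6% of all genes. The TATA box letters TATAAA were in 0 members and in 14.0% of all genes, and the letters TGACGT were in 3 members (BEX5, TCEAL1 and TCEAL9) and in 9.64%. A match is a description of letters in a window, and the lack of one says only that these letters are not in that window.

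BEX1 was the member with the largest difference between the groups. Its levels were 6.29, 9.10 and 9.08 TPM in the control libraries and 126.82, 134.04 and 131.31 TPM in the rutaecarpine libraries. The groups were far apart, and the rutaecarpine libraries lay close together. The mean was 8.16 ± 1.62 TPM (SD, n = 3) in control and 131 ± 3.65 TPM (SD, n = 3) after rutaecarpine, a 16.0-fold difference. On the log2(TPM + 1) scale the difference was 3.86 (SE 0.15), the 8th largest increase of 14377 tested genes. By mean level, BEX1 (ENSG00000133169, chrX:103062651-103064240 of GRCh38, minus strand) stood at place 8964 of the 60671 listed genes in control and at place 1075 after rutaecarpine. In bulk RNA, more RNA per cell and more cells that express a gene cannot be told apart.

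BEX4 and BEX2, which are close relatives of BEX1, were also higher after rutaecarpine. BEX4 (ENSG00000102409, chrX:103215092-103217246, plus strand), described as a tubulin-binding protein that interacts with SIRT2, was at 24.77, 22.49 and 21.45 TPM in control and at 48.21, 53.51 and 46.67 TPM after rutaecarpine. The groups did not overlap, and the means of 22.9 ± 1.70 and 49.5 ± 3.59 TPM (SD, n = 3 each) differed 2.16-fold, or by 1.08 (SE 0.11) on the log2 scale. BEX2 (ENSG00000133134, chrX:103309346-103311046, minus strand), described as a partner of the transcription factor LMO2, was at 32.45, 30.92 and 33.70 TPM in control and at 55.47, 80.87 and 66.21 TPM after rutaecarpine. Here the control libraries were close together and the rutaecarpine libraries were spread, with replicate 2 the highest. The BEX2 means of 32.4 ± 1.39 and 67.5 ± 12.8 TPM (SD, n = 3 each) differed 2.09-fold, or by 1.02 (SE 0.14) on the log2 scale. Without rutaecarpine replicate 2 the log2 difference of BEX2 was 0.89.

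BEX3, the most abundant member in both groups, had groups that overlapped. Its levels were 474.77, 483.24 and 591.23 TPM in control and 537.89, 614.87 and 514.86 TPM after rutaecarpine. The overlap came from control replicate 3 alone, and without that library the log2 difference was 0.21. The means were 516 ± 64.9 and 556 ± 52.4 TPM (SD, n = 3 each), a ratio of 1.08, and the log2 difference was 0.11 (SE 0.11). BEX3 (ENSG00000166681) lies at chrX:103376340-103378077, plus strand. BEX5 (ENSG00000184515, chrX:102153708-102156057, minus strand), the least expressed member, was at 0.40, 0.55 and 1.03 TPM in control and at 1.02, 0.85 and 0.75 TPM after rutaecarpine. These groups overlapped too, and BEX5 was the 1 member that did not reach 1 TPM in 3 libraries, the minimum for the fit.

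**Figure D1:**
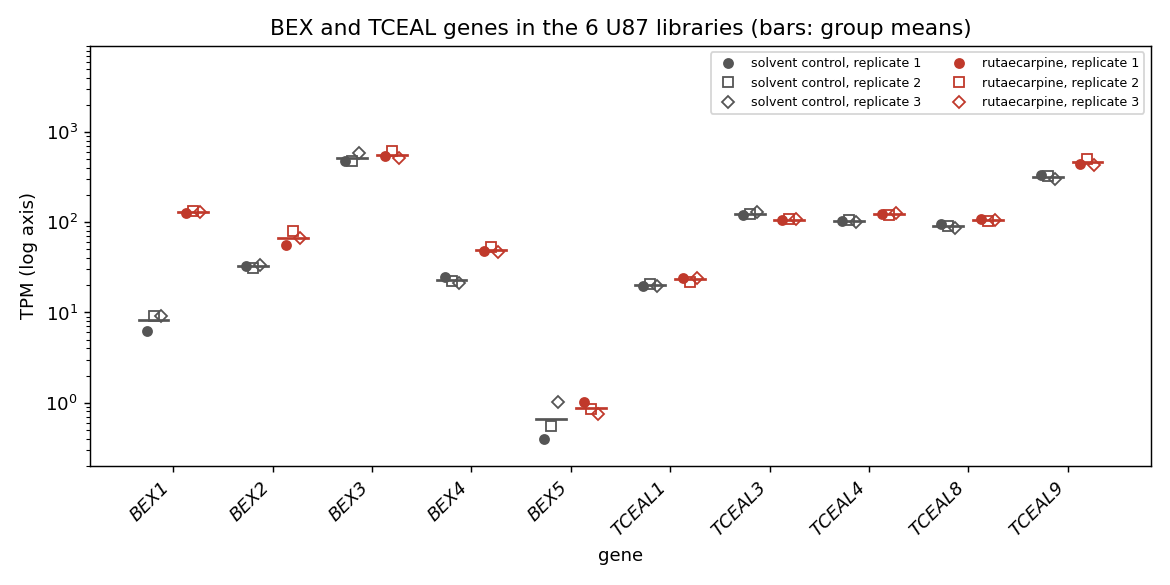
TPM (log axis) of the 10 members in each library, with grey symbols for solvent control, red symbols for rutaecarpine, 1 symbol shape per replicate number and bars at the group means (n = 3). BEX1 lies at 8.16 TPM in control, below every member except BEX5, and at 131 TPM after rutaecarpine, BEX2 and BEX4 differ 2.09-fold and 2.16-fold, and the other members differ by at most 1.45-fold.

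The difference of BEX1 changed the make-up of the BEX transcripts. The summed level of the 5 BEX genes was 538.68, 546.30 and 656.49 TPM in control and 769.41, 884.14 and 759.80 TPM after rutaecarpine. BEX1 made up 1.17, 1.67 and 1.38% of this sum in control and 16.5, 15.2 and 17.3% after rutaecarpine. The BEX1 level was 0.253 ± 0.0523 of the BEX2 level in control and 1.98 ± 0.314 of it after rutaecarpine (SD, n = 3 each), so that the order of the pair was turned. Without BEX1, the sum of the other BEX genes was 572 ± 65.1 TPM in control and 674 ± 66.5 TPM after rutaecarpine (SD, n = 3 each), a ratio of 1.18 against 1.39 for the full sum.

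**Figure D2:**
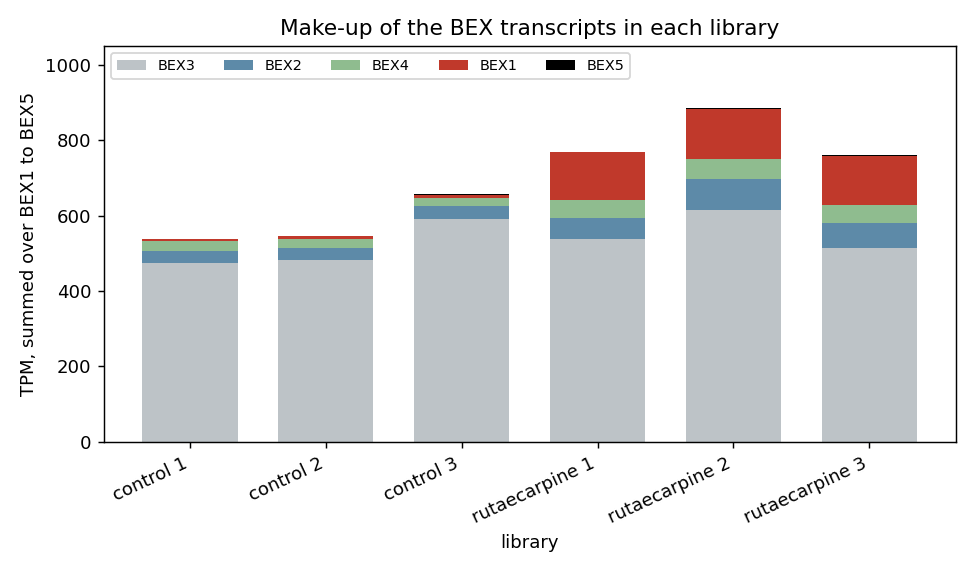
TPM summed over BEX1 to BEX5 in each library, stacked by gene, for the 3 control and the 3 rutaecarpine libraries. BEX3 is the largest part of every bar, and the BEX1 part is a thin line in control and 15.2 to 17.3% of the bar after rutaecarpine.

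The 5 TCEAL members differed less. TCEAL9 (ENSG00000185222, chrX:103356489-103358462, plus strand; also known as WBP5), the most abundant of them, was at 331.37, 325.80 and 299.37 TPM in control and at 443.16, 506.49 and 436.33 TPM after rutaecarpine. Every rutaecarpine library lay above every control library, the means were 319 ± 17.1 and 462 ± 38.7 TPM (SD, n = 3 each), and the log2 difference was 0.53 (SE 0.09), or 1.45-fold. Since TCEAL9 was abundant, this was a larger gain in TPM than that of BEX1.

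TCEAL4, TCEAL8 and TCEAL1 were slightly higher after rutaecarpine, with groups that did not overlap. TCEAL4 (ENSG00000133142, chrX:103576231-103587736, plus strand) was at 103.46, 105.25 and 101.36 TPM in control and at 122.50, 119.78 and 125.66 TPM after rutaecarpine, a log2 difference of 0.24 (SE 0.07). TCEAL8 (ENSG00000180964, chrX:103252995-103255203, minus strand) was at 95.38, 90.43 and 86.26 TPM in control and at 109.96, 103.19 and 105.60 TPM after rutaecarpine, a log2 difference of 0.23 (SE 0.08). TCEAL1 (ENSG00000172465, chrX:103628704-103630953, plus strand) was at 19.69, 20.76 and 19.68 TPM in control and at 24.06, 21.72 and 23.94 TPM after rutaecarpine, a log2 difference of 0.20 (SE 0.11). These differences of 1.16 to 1.19-fold were close to each other. With libraries centred on their medians they were 0.15 for TCEAL4, 0.13 for TCEAL8 and 0.11 for TCEAL1 on the log2 scale, and TCEAL8 was at 0.14 after a correction for length and GC content.

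TCEAL3 was the 1 member that was lower after rutaecarpine. It was at 120.36, 121.86 and 130.91 TPM in control and at 104.65, 109.20 and 107.74 TPM after rutaecarpine, with a log2 difference of -0.21 (SE 0.08). Its groups did not overlap, and its mean after rutaecarpine was 0.862 of the control mean. TCEAL3 (ENSG00000196507, chrX:103607451-103629690, plus strand) has a span in GENCODE that overlaps that of TCEAL1 on the same strand, so reads of the pair can be hard to assign.

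Of the 10 members, 3 (BEX1, BEX2 and BEX4) passed the cutoffs applied to all genes, limma's adjusted p of at most 0.05 with an absolute log2 difference above 1, and all 3 were higher after rutaecarpine. Over all tested genes, 3.51% passed in either direction and 2.01% passed as higher. With the adjusted p alone there were 4 members, TCEAL9 being added (it was at or below 0.05 in 11 of 14 alternative settings), where 9.29% of all tested genes passed and 4.60% passed as higher. The rutaecarpine libraries all lay above the control libraries for 7 members and below them for 1, and the shares of all tested genes with such groups were 19.3% and 14.0%. Since the members were chosen from this contrast, nothing is read from these counts. The median log2 difference was 0.24 over the 10 members and 0.08 over all tested genes.

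The order of the levels changed at few places. In control it ran BEX3, TCEAL9, TCEAL3, TCEAL4, TCEAL8, BEX2, BEX4, TCEAL1, BEX1 and BEX5, and no pair of neighbours had ranges that overlapped. After rutaecarpine BEX1 stood between TCEAL9 and TCEAL4, and TCEAL4 stood above TCEAL3. The ranges of TCEAL3 and TCEAL8 then overlapped, and those of the other neighbours did not.

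Control replicate 3 stood apart from the other libraries. Its median log2(TPM + 1) over tested genes was 3.56, against 3.81 to 4.00 in the other 5, and its correlation with the other control libraries was 0.965, against 0.986 between those (Pearson's r across genes, which are not independent replicates). Without control replicate 3 the ratio of means was 17.0 for BEX1 and 1.16 for BEX3, and BEX1, BEX2 and BEX4 again passed the cutoffs. When the libraries were centred on their medians, BEX1 alone passed, and the log2 differences of BEX4 and BEX2 were 0.99 and 0.93.

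Similar sequences between family members can also blur their values, since RSEM divides reads that match several genes. Of the 50-base words of the longest BEX1 transcript in GENCODE, 3.19% also occur in a transcript of another gene, in each case BEX2. For BEX2 the share was 2.92%, for BEX4 0.313%, and for BEX3, BEX5, TCEAL8 and TCEAL9 it was 0. The share was 18.3% for TCEAL3, with words in common with TCEAL6 and TCEAL5, the largest share among the members. TCEAL1 and TCEAL4 had shares of 2.69% and 1.38%.

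Markers of cell types were read beside the members, since the families are known from neurons. Of 8 neuronal markers 5 were at 1 TPM or more in every library, and the summed level of the 8 was 213 to 224 TPM in control and 106 to 122 TPM after rutaecarpine, lower where BEX1 was higher. Most of the sum was TUBB3 (a mean of 176 TPM in control and 89.4 TPM after rutaecarpine), and SYP lay the other way, at 1.49 to 1.94 TPM in control and 2.46 to 2.68 TPM after rutaecarpine. SNAP25, MAP2 and GAP43 were lower after rutaecarpine, with means of 24.4 and 15.9 TPM, 8.5 and 4.01 TPM, and 7.83 and 3.34 TPM. The remaining neuronal markers of the list, RBFOX3, STMN2 and NEFL, were at 0 to 0.15 TPM. The part of this change in the members' values was not tested. VIM, FN1 and CD44, which mark mesenchymal glioblastoma cells, were high, with means of 7498 and 4857 TPM (VIM), 6025 and 3241 TPM (FN1) and 655 and 756 TPM (CD44) in control and after rutaecarpine. The CD44 groups overlapped, with control libraries at 744, 805 and 415 TPM and rutaecarpine libraries at 830, 600 and 837 TPM. In the same order, the means were 891 and 677 TPM for TNC, 2057 and 2593 TPM for CHI3L1 and 19.5 and 13.2 TPM for NES. SOX2 and S100B, which mark glial stem cells and astrocytes, were near absent at 0 to 0.25 TPM in these cells labelled as glioblastoma. GFAP was at 3.48 to 5.41 TPM, and OLIG2 was at 1.48 to 1.73 TPM in control and at 3.07 to 4.11 TPM after rutaecarpine. Oligodendrocyte and endothelial lists summed to at most 2.20 TPM, and the epithelial list to at most 12.75 TPM. The 4 microglial and leukocyte markers summed to 452 to 511 TPM in control and to 319 to 357 TPM after rutaecarpine, nearly all of it CD68, a lysosomal protein, while PTPRC was at 0 to 0.03 TPM and AIF1 was listed at 0.

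Of the 4 other TCEAL genes in the table, 2 reached the minimum for the fit, and in both every rutaecarpine library lay above every control library. Groups apart in this way were found for 19.3% of all tested genes. TCEAL7 (ENSG00000182916), which lies between BEX2 and TCEAL9, was at 48.37, 44.67 and 42.92 TPM in control and at 68.50, 65.51 and 64.98 TPM after rutaecarpine. It rose by 0.54 (SE 0.09) on the log2 scale, with an adjusted p of 0.0116 by limma with Benjamini-Hochberg adjustment, which did not stay at or below 0.05 in 6 of 14 alternative settings (adjusted p 0.000664 to 0.0809). TCEAL5 (ENSG00000204065), whose longest transcript shares 10.8% of its words with TCEAL6 and TCEAL3, was at 3.67, 3.06 and 2.81 TPM in control and at 5.86, 3.96 and 6.84 TPM after rutaecarpine, and the difference of 0.63 (SE 0.22) did not pass the test (adjusted p = 0.132 by limma). TCEAL2 was at 0 to 0.15 TPM, and TCEAL6 was listed at 0 in all 6 libraries. None of the 4 passed both cutoffs by limma, and 2 had an unadjusted p under 0.05, as did 3506 of all 14377 tested genes.

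In the neighbouring ARMCX and GPRASP families the E-box was present in 5 of the 8 genes that have a promoter entry. ARMCX proteins are armadillo-repeat proteins, several of them mitochondrial, and GPRASP proteins bind G protein-coupled receptors. Of their 9 genes 8 were tested (GPRASP1, at 0.16 to 0.41 TPM, was not), and 0 passed by limma at an adjusted p of at most 0.05. An unadjusted p under 0.05 was found for 2 of the 8, and for 3506 of all 14377 tested genes. The log2 differences of all 8 were above 0, from 0.07 (ARMCX6) to 0.55 (ARMCX4 and ARMCX5), with a median of 0.45, or 0.24 without control replicate 3. Of all tested genes 59.3% were above 0, or 49.1% without control replicate 3. ARMCX4, whose promoter stretch was the one nearest to that of BEX1, differed by 0.55 (SE 0.29, adjusted p = 0.307 by limma).

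Control replicate 3 was the low library for most of these genes. Its level was 0.454 of the mean of control replicates 1 and 2 for ARMCX3, 0.458 for ARMCX4, 0.467 for GPRASP2, 0.589 for ARMCX2, 0.613 for GPRASP3 and 0.704 for ARMCX5. ARMCX6 was high there, at 1.55 of the other controls. Without control replicate 3, the log2 difference was 0.17 for ARMCX3, 0.26 for ARMCX4, 0.08 for GPRASP2, 0.21 for ARMCX2, 0.22 for GPRASP3, 0.42 for ARMCX5 and 0.27 for ARMCX6. ARMCX1 was less touched, at 0.902 of the other controls. Its log2 difference was 0.46 with all 6 libraries (SE 0.14, adjusted p = 0.0997 by limma) and 0.41 without control replicate 3. Of the members, BEX1 was at 1.18 of the mean of the other controls in that library, so it was not low there. BEX2 (1.06), BEX3 (1.23), BEX5 (2.17) and TCEAL3 (1.08) were higher there too. BEX4 (0.908), TCEAL9 (0.911), TCEAL8 (0.928), TCEAL4 (0.971) and TCEAL1 (0.973) were lower there. Without that library the log2 difference was 1.03 for BEX4, 0.49 for TCEAL9 and 0.19 for TCEAL8.

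**Figure D3:**
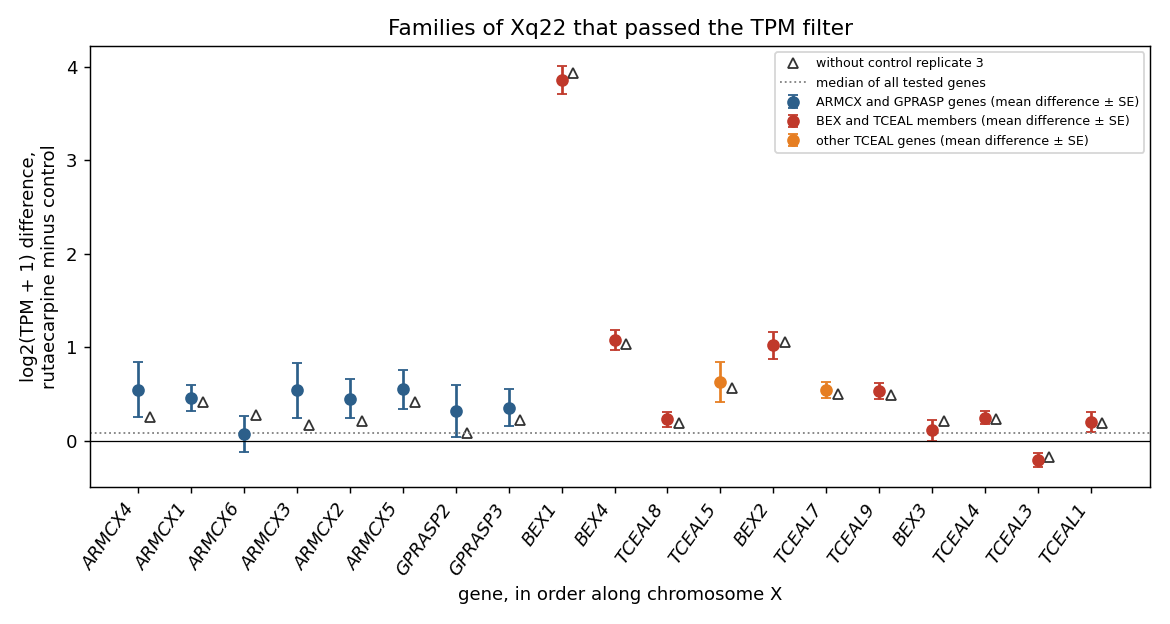
Difference in mean log2(TPM + 1), rutaecarpine minus control, of the members (red), other TCEAL genes (orange) and ARMCX and GPRASP genes (blue) that passed the TPM filter, ordered along the X chromosome, with bars for the SE (n = 3 against 3). Open triangles leave out control replicate 3. BEX1 lies at 3.86, BEX4 and BEX2 near 1, and the triangles of the ARMCX and GPRASP genes other than ARMCX6 lie below their points.

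Genes that lie beside or between the families were listed by name, and other genes of the region were not looked at. The listed genes showed no such difference as BEX1. Of 29 such genes 18 were tested, 10 had a difference above 0 and 8 below, and the median was 0.06 on the log2 scale, or -0.04 without control replicate 3. Of the 18, 1 passed both cutoffs, against 3.51% of all tested genes. It was SRPX2, a secreted sushi-repeat protein, which fell from 75.12, 69.62 and 66.52 TPM to 34.47, 29.45 and 34.94 TPM. Its log2 difference was -1.08 (SE 0.11, adjusted p = 0.00164 by limma), and it did not pass when rutaecarpine replicate 2 was left out, where the difference was -0.998. NXF3, the nearest to BEX1 of these listed genes, was at 0.27 to 0.89 TPM and was not tested.

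**Figure D4:**
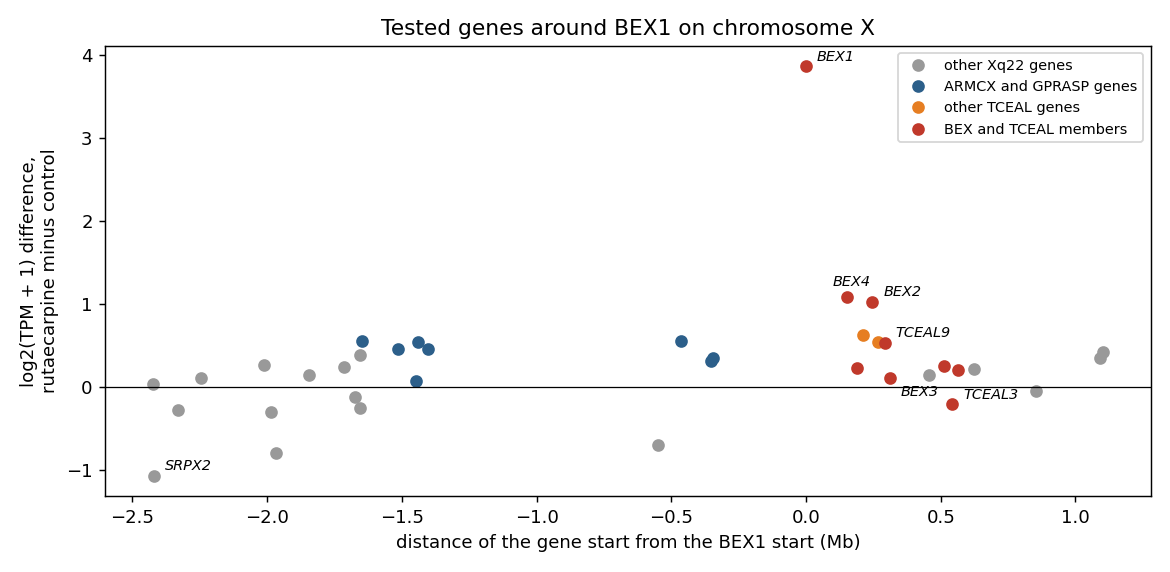
Difference in log2(TPM + 1), rutaecarpine minus control, against the distance of the gene start from the BEX1 start in Mb, coloured by family. The tested genes of the lists are shown, and other genes of the region are not. BEX1 stands at 3.86 and every other gene shown lies between -1.08 (SRPX2) and 1.08 (BEX4).

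The p75 neurotrophin receptor and other partners described for BEX proteins were looked at as a list of 20 genes, of which 13 were tested. NGFR, the receptor itself, was at 0 to 0.28 TPM and was not tested. Of the 13, 2 passed both cutoffs, and 1 of them is given here. Over all tested genes 3.51% passed both. PLK1, a mitotic kinase described as a partner of BEX4, was lower (75.34, 72.78 and 74.47 TPM against 36.01, 33.14 and 32.72 TPM), with a log2 difference of -1.11 (SE 0.09, adjusted p = 0.000755 by limma). LMO2 and SIRT2, partners described for BEX2 and BEX4, did not pass, with log2 differences of -0.18 and -0.20. MAGED1 and RIPK2 passed the adjusted p alone, at -0.50 and 0.80, and are named after their values were seen. The adjusted p was passed by 9.29% of all tested genes. The median over the 13 was -0.19.

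Elongation factors, for which the TCEAL genes are named, gave 30 tested genes. Of these 0 passed both cutoffs by limma, and 5 had an unadjusted p under 0.05, against 3506 of all 14377 tested genes. TCEA1, the gene of TFIIS itself, was at 109.57, 110.17 and 70.73 TPM in control and at 155.51, 169.34 and 195.39 TPM after rutaecarpine, a log2 difference of 0.86 (SE 0.19, adjusted p = 0.0333 by limma). That adjusted p was at or below 0.05 in 6 of 14 alternative settings (0.00231 to 0.143). ELL2 and ELL differed by 1.03 (SE 0.28) and 0.63 (SE 0.18) without passing (adjusted p of 0.0659 and 0.0757 by limma). Without control replicate 3 the log2 differences were smaller, at 0.65 for TCEA1, 0.69 for ELL2 and 0.48 for ELL. Each then had an adjusted p at or below 0.05 by limma. So did 2652 of the 14188 genes tested without that library, against 1335 of 14377 with all 6. The median over the 30 was 0.15, or 0.11 without control replicate 3.

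The tested genes whose pattern over the 6 libraries lay nearest to the median pattern of the members were SLC16A13, TSEN15, RPF1, SIAH2 and CUL3, at root mean square differences of 0.0207 to 0.0379 in log2(TPM + 1). These patterns are those of a small difference of about 0.31 to 0.36 on the log2 scale. BEX1 was far from that median pattern, at 1.77, and BEX2 and BEX4 were at 0.373 and 0.376. By the same measure, the genes nearest to BEX1 alone were THBD, IGFBP1, GPR84, PDCD6-AHRR and IL24, at 0.210 to 0.369 over the 6 libraries, a list chosen after the values were seen.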

How the data were processed

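RNA-Seq libraries of U87 cells, 3 after rutaecarpine and 3 after solvent, were taken with groups and replicate numbers from the sample labels. The values the authors deposited are TPM, 1 column per library, quantified with RSEM on GRCh38.p13 per the submitters' processing notes. The aligner and annotation are not given in the sources used here. Each of the 6 columns had its sample, with 0 unmatched. TPM keep no read numbers, so depth and counting error are unknown.

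TPM were transformed to log2(TPM + 1), which understates the change of weakly expressed genes. The filter asked for 1 TPM or more in 3 or more libraries, which 14377 genes passed, among them 9 of the 10 members. The groups were compared with limma 3.58.1 in R 4.3.3 (moderated, with a mean-variance trend, two-sided), with p values adjusted across the 14377 genes after Benjamini and Hochberg. Genes passed where this adjusted p did not exceed 0.05 and the log2 difference was above 1 in size, and the model was tested on simulated data. The standard errors are those of this fit. Python 3.11.15 with numpy 2.4.6, pandas 2.3.3 and matplotlib 3.10.9 was used for tables and figures.

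The genes and lists were chosen with earlier results of these data known. Genes named were all members, all other TCEAL, ARMCX and GPRASP genes, the called genes of each other list or, with none, up to 3 with the smallest adjusted p, and the 5 genes nearest to the median profile of the members. Gene positions and transcripts came from GENCODE release 29 on GRCh38, and promoter windows from RefSeq on GRCh38.p14. TCEAL7 and ARMCX3 have no promoter entry, and protein sequences were not used here. The E-box search, the identity of stretches, the 50-base words and ratios without control replicate 3 were added after the data were seen. The alternatives tried were centred libraries, a pseudocount of 0.1, 2 other filters, no trend, a replicate block, library weights, a length and GC correction and leaving out each library. A called gene of the p75 list is not reported here.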

Additional observations from a re-analysis of the deposited data

How the results depend on the processing

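Over all tested genes 505 passed (289 higher, 216 lower), 318 with the replicate number as a block, and 320 to 585 when 1 library was left out (585 without control replicate 3). With centred libraries the split was 251 higher and 295 lower. The members' median log2 difference, 0.24, was 0.14 with centred libraries, 0.34 with a pseudocount of 0.1, 0.29 with library weights, and 0.22 to 0.29 when 1 library was left out (0.29 without control replicate 3). Of the 10 members, 9 were above 0 and 1 below in all settings, and 1 to 3 passed: BEX1 in all 14 alternatives, BEX4 in 13 and BEX2 in 10. The count of the genes beside the families, 1, was 2 with library weights and 0 to 2 when 1 library was left out, 2 without control replicate 3 and 0 without rutaecarpine replicate 2. The count of the p75 list, 2, was 1 with the replicate block. Under the block BEX1, BEX2 and BEX4 passed both cutoffs as before, and TCEAL9 no longer passed the adjusted p alone. With library weights 7 members passed the adjusted p alone, but so did 3962 of all 14377 tested genes, against 1335 in the main fit. Deviations from the group means correlated at 0.12, -0.27 and -0.22 between same-numbered libraries. With 3 libraries per group, and control replicate 3 apart from the others, these values cannot decide whether the libraries were paired. ARMCX6, at 0.07, turned to -0.0237 with centred libraries and ranged from -0.0429 to 0.27 when 1 library was left out (-0.0429 without control replicate 1, -0.0208 without control replicate 2 and -0.00253 without rutaecarpine replicate 2). The causes were not tested. With no read numbers, low values such as those of BEX5 carry an unknown counting error.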
